A study of Mus musculus with 4 samples.

Results

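RNA-binding proteins are themselves made from mRNAs that other RNA-binding proteins hold, and 5 such mRNAs carried clusters of IMP2 (gene Igf2bp2) in the embryonic mouse brain. They were Hnrnpa0, Celf2, Caprin1, Pcbp1 and Pabpc1, taken by their gene symbols from the deposited cluster list. They were selected on measured values, namely the presence, number and height of their clusters in earlier results of these same data. They held 27 of the 1828 distinct clusters and were 5 of the 761 genes with at least 1 cluster. Among all 21900 protein-coding genes 3.47% were listed; since being listed is part of how the 5 genes were chosen, nothing is read from that share here.

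The clusters came from HITS-CLIP, in which ultraviolet light joins a protein to the RNA it touches, an antibody pulls the protein down, and the RNA pieces left on it are sequenced as tags. A cluster is a stretch of overlapping tags, and its height was read as the largest number of tags stacked there. All 4 libraries were IMP2 immunoprecipitates from Swiss Webster mouse brain at E14, with RNA trimmed by benzonase to pieces of about 40 nucleotides. For each library the labels give ultraviolet light of 254 nm at 300 mJ/cm2 with 3 exposures. Antibodies against IMP2 from mouse and from rabbit were used, 2 titles carry the letter R and 2 the letter M, and what these letters stand for is not given in the labels. One list stood for all libraries, so each cluster has 1 height with no replicate error, no test was made, and the R and M libraries were not compared. Tag totals of the libraries were not at hand, which leaves the depth behind every height unknown. No input or control immunoprecipitation was analysed here. A tall cluster and an abundant transcript therefore cannot be told apart. Whole brains hold many cell types. Of the markers fixed for this tissue, 5 of 8 neuronal genes were listed, and 1 of 7 progenitor genes, 0 of 6 microglial genes, 0 of 5 endothelial genes and 2 of 6 erythroid genes. Absent from the list were the neuronal markers Tubb3, Elavl4 and Neurod2, and all progenitor markers but Vim. A listed gene is one with an IMP2 cluster, so these counts do not show which cells were present.

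IMP2 belongs to the IGF2BP family, cytoplasmic proteins with RRM and KH domains that bind mRNAs, many of them in the 3' UTR (the untranslated part after the stop codon), and are known for localising them, protecting them from decay and holding back their translation. In axons and dendrites such proteins travel in RNP granules, which contain mRNAs together with other RNA-binding proteins. The 5 genes stand for different steps of an mRNA's life. The proteins of Hnrnpa0 and Celf2 bind 3' UTRs and pre-mRNAs, that of Caprin1 builds granules, and those of Pcbp1 and Pabpc1 bind runs of C and the poly(A) tail.

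The 27 clusters were almost all in 3' UTRs. By the midpoint rule 26 of them (96.3%, exact Clopper-Pearson 95% interval 81.0 to 99.9, counting error only) lay there and 1 lay in coding sequence, against 94.1% and 5.42% of all clusters of the list. Their median height was 38 (range 19 to 80), against 30 for all clusters (18 to 107). The fold that the authors gave each height, whose reference level the file header does not define, had a median of 5.39 in the 5 genes and 5.40 in the whole list. Thus 17 of the 27 were taller than the median height of the list, while 13 had a fold above its median fold. The members were chosen with these heights known, so these shares describe them and nothing more.

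**Figure D1:**
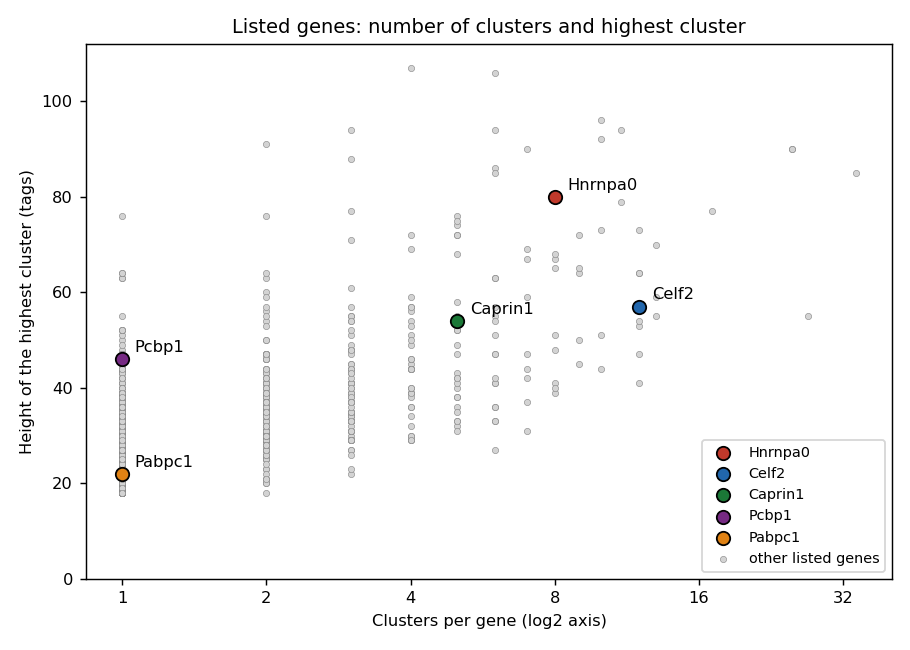
Each point is 1 of the 761 listed genes, with its number of clusters on a log2 axis and the height of its highest cluster in tags; the 5 genes are coloured. Hnrnpa0 (8 clusters, height 80) and Celf2 (12 clusters, height 57) lie to the upper right, and Pcbp1 and Pabpc1 stand at 1 cluster with heights of 46 and 22.

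Hnrnpa0 encodes heterogeneous nuclear ribonucleoprotein A0, known to bind AU-rich elements in the 3' UTRs of inflammatory mRNAs. Its transcript had the tallest cluster of the 5 genes and was the most densely covered of the 4 with a cluster in the 3' UTR. Read 5' to 3', its 8 clusters had heights of 31, 49, 80, 37, 48, 53, 65 and 51. All 8 were taller than the median of the list, and the first was the lowest. The tallest lay on chromosome 13 at 58227979 to 58228130 (mm9, minus strand), 626 bases into the 3' UTR, with a fold of 10.79. Only 15 of the 761 listed genes had a higher cluster than 80, and 28 had more than 8 clusters.

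The 3' UTR of Hnrnpa0 is somewhat shorter than the median of this list, and its clusters filled 46.8% of it. The deposited interval runs from 58227240 to 58228756 and is 1517 bases long, against a median of 1998 bases for the 729 listed genes with a 3' UTR cluster. Of these genes, 458 had a longer 3' UTR and 37.0% a shorter one. The first cluster began 91 bases after the stop codon and the last ended 29 bases before the 3' end, so they spanned nearly the whole interval. This gave 5.27 clusters per kilobase, against a median of 0.861 in the 729 genes, of which 7 had a higher density. Among the 87 genes with at least 5 clusters in the 3' UTR the median was 2.43 per kilobase, and 3 genes lay above Hnrnpa0.

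Part of that density came from clusters that nearly touch. The last 4 clusters of Hnrnpa0 were separated by gaps of 3, 3 and 26 bases, whereas the 4 gaps before them were between 86 and 206 bases. Joining clusters at most 50 bases apart left 5 clusters and 3.30 per kilobase. Neighbouring midpoints were a median of 191.5 bases apart (range 90 to 314.5). The 4 closely set clusters occupied the last stretch of the 3' UTR, from 1093 to 1488 bases after the stop codon, with heights between 48 and 65.

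**Figure D2:**
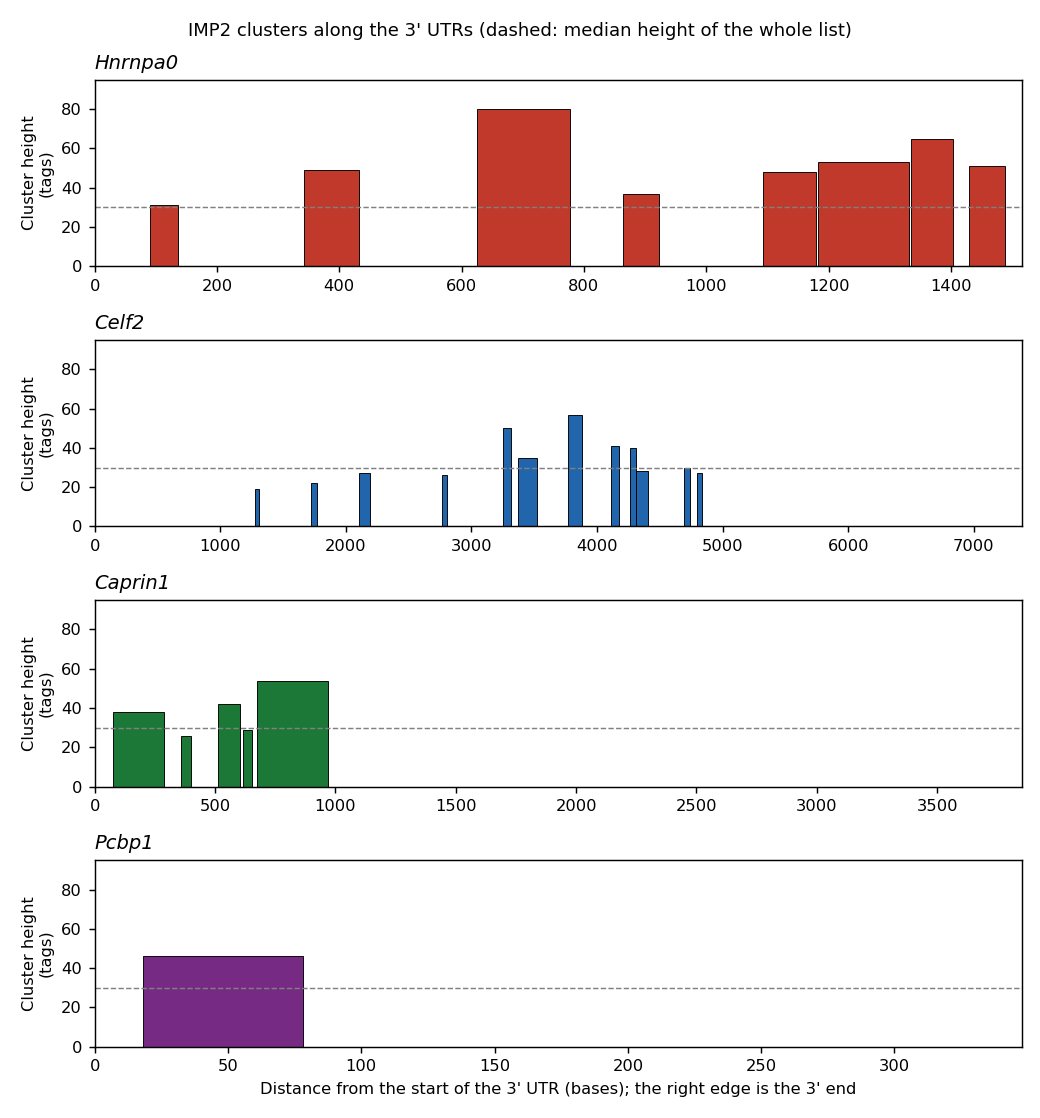
Each bar is a cluster drawn to scale along the 3' UTR of Hnrnpa0, Celf2, Caprin1 or Pcbp1, with the distance from the start of the longest deposited 3' UTR interval in bases and the height in tags; the dashed line is the median height of the list, 30. Clusters of Hnrnpa0 run to the 3' end, and those of Celf2 take the middle of its longest interval. Those of Caprin1 and Pcbp1 stop early, leaving 2883 and 270 bases free.

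Celf2 encodes a CELF protein with 3 RRM domains, known for regulating alternative splicing and, in the cytoplasm, mRNA decay and translation. It had the most clusters of the 5 genes, spread over the longest 3' UTR of the 4 with a cluster there. The 12 clusters had heights of 19, 22, 27, 26, 50, 35, 57, 41, 40, 28, 30 and 27 from the stop codon towards the 3' end. Heights above the median of the list formed 1 block of 5 neighbouring clusters, from 50 to 40 in that order, between 3250 and 4310 bases after the start of the 3' UTR. The tallest, 57, lay on chromosome 2 at 6464254 to 6464365 (mm9, minus strand) with a fold of 6.96, and the cluster of height 50 at 6464819 to 6464881 had the gene's highest fold, 8.57. Only 8 listed genes had more clusters, while 58 had a higher tallest cluster.

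The clusters of Celf2 left both ends of its 7388-base 3' UTR (6460744 to 6468131) free. They covered 11.1% of it at 1.62 clusters per kilobase, against medians of 4.70% and 0.861 in the 729 genes. Among the 87 genes with at least 5 clusters in the 3' UTR, whose median was 2.43 per kilobase, 66 had a higher density. No cluster was listed in the first 1280 bases or in the last 2554 bases. Midpoints were a median of 357 bases apart, from 75 to 638.5. Of these 87 genes, 68 had a smaller median spacing. On the longest intervals, 80 had a shorter free stretch at the start and 83 a shorter one at the end. The stretch at the start depended on the transcript.

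One cluster of Celf2 depended on the transcript. The list named 8 transcripts of the gene that share a 3' end but not a stop codon. In 5 of them the 3' UTR interval is 5978 bases long, in 1 it is 7082 and in 2 it is 7388. The first cluster (6466825 to 6466851) lay in the longer intervals only and was therefore listed for 3 transcripts, while the other 11 were listed for all 8. It was also the lowest and narrowest of the 27 clusters, with a height of 19, a fold of 2.48 and a width of 27 bases, close to the lowest height and fold that the list holds, 18 and 2. Counted on the 5978-base interval, 11 clusters covered 13.3%. That interval begins at 6466721 on the minus strand and its first cluster at 6466405. The free stretch at the start was thus shorter for these 5 transcripts, and it was not ranked on their interval. The shared 3' end leaves the free stretch there unchanged.

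Caprin1 encodes a granule protein that binds G3BP proteins and is known in neurons for RNA granules in dendrites. Its 5 clusters lay together at the start of its 3' UTR. From the stop codon on, their heights were 38, 26, 42, 29 and 54. Those of height 26 and 29 were below the median of the list. The tallest, on chromosome 2 at 103605985 to 103606281 (mm9, minus strand) with a fold of 6.03, was 297 bases wide, and 98.7% of all clusters were narrower. The first cluster, 210 bases wide, was also broader than most, since 97.3% of clusters were narrower.

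The rest of the Caprin1 3' UTR was free of listed clusters. The interval runs from 103603102 to 103606955 (3854 bases), the first cluster began 77 bases after the stop codon, and the last ended after 971 bases, at 25.2% of the length. The 2883 bases beyond it held none. Among the 87 genes with at least 5 clusters in the 3' UTR the last cluster ended at a median of 91.7% of the length, and 1 gene had a lower value than Caprin1. All 3 listed transcripts share this interval, and whether shorter 3' UTRs are in use in this tissue was not tested. The clusters covered 17.6% of the interval at 1.30 per kilobase. Gaps of 14 and 20 bases separated the 3 clusters farthest from the stop codon, so joining at 50 bases left 3 clusters.

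Pcbp1 encodes a poly(C)-binding protein with KH domains, known for stabilising mRNAs through C-rich parts of 3' UTRs and for controlling translation. It had a single cluster (height 46, fold 7.93), found on chromosome 6 at 86474761 to 86474820 (mm9, minus strand). The cluster began 18 bases after the stop codon and ended after 78 bases of a 348-base 3' UTR (86474491 to 86474838), so it covered 17.2% of the interval. Of the 729 genes, 712 had a longer 3' UTR. With its length, 1 cluster amounted to 2.87 per kilobase, a density higher than in 88.6% of these genes. Of all listed genes, 55.1% had a single cluster, and 127 of the 761 had a cluster higher than 46.

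Pabpc1 encodes the cytoplasmic poly(A)-binding protein, which coats the poly(A) tail and is known for linking it to the translation machinery. It was the only one of the 5 genes with no cluster in the 3' UTR. Its single cluster had a height of 22 and was 31 bases wide, on chromosome 15 at 36528728 to 36528758 (mm9, minus strand). It lay inside a coding interval of 91 bases (36528707 to 36528797), 39 bases from its upstream edge and 21 bases from its downstream edge. A height of 22 was low, with 647 listed genes reaching higher. Its fold of 7.30 was not, with 287 listed genes reaching a higher fold. Among all clusters, 12.8% had a lower height and 77.7% a lower fold.

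Height and fold thus ordered the 5 genes differently. By highest cluster the order was Hnrnpa0 (80), Celf2 (57), Caprin1 (54), Pcbp1 (46) and Pabpc1 (22), and by highest fold it was Hnrnpa0 (10.79), Celf2 (8.57), Pcbp1 (7.93), Pabpc1 (7.30) and Caprin1 (6.39). Without replicate error, neighbours in these orders cannot be said to differ. If the fold is the height over some reference level, which the file does not state, dividing height by fold gives that level. This quotient was 3.01 for Pabpc1 and 5.80 for Pcbp1, and ranged from 4.38 to 8.19 in Celf2, 6.57 to 8.96 in Caprin1 and 7.41 to 10.2 in Hnrnpa0. In Hnrnpa0 the tallest cluster had the lowest quotient, while 5 others lay between 9.64 and 10.2 and had folds of 6.70 or less.

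**Figure D3:**
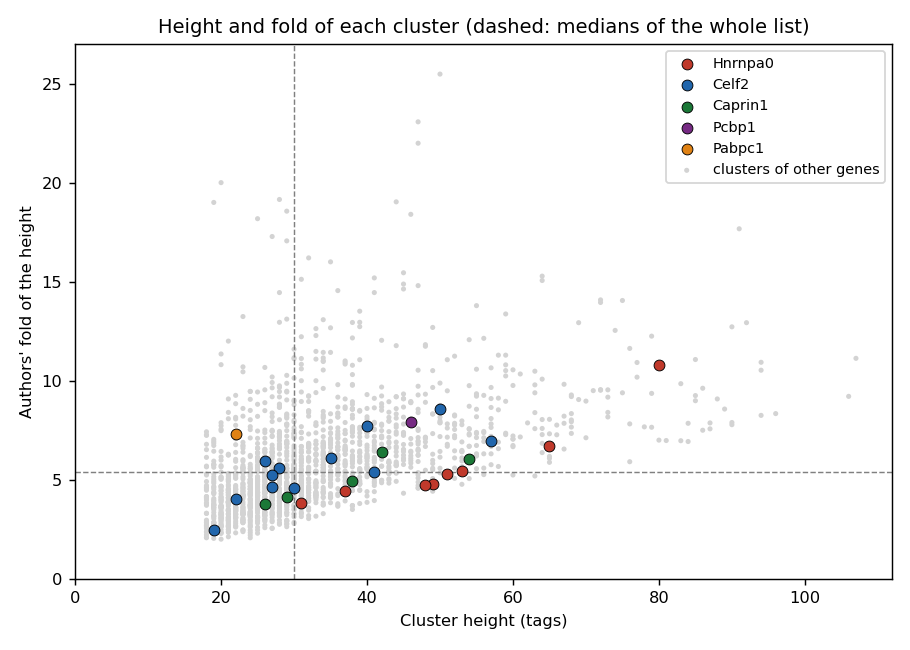
Each point is a cluster, with its height in tags and the authors' fold of that height; coloured points are the 27 clusters of the 5 genes, and dashed lines are the medians of the list, 30 and 5.40. Only 3 of the 8 clusters of Hnrnpa0 have a fold above the median although all 8 exceed the median height, while the cluster of Pabpc1 has a low height (22) and a fold of 7.30.

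Cluster width and spacing bear on how many contacts a count of clusters stands for. Of the 27 clusters, 5 were at most 40 bases wide, about the length of 1 RNA piece, and 6 were wider than 100 bases. The median width of the 27 was 63 bases, against 53 in the whole list. Of the whole list, 25.1% of clusters were at most 40 bases wide and 14.2% were wider than 100 bases. There were 22 gaps between neighbouring clusters of a gene, of which 6 were at most 50 bases and 3 at most 3 bases. Those 3 gaps were in Hnrnpa0 and Celf2, so several neighbouring clusters there were closer to each other than 1 RNA piece is long. Gaps were not counted over the whole list, so close spacing cannot be called particular to these genes. Joining across gaps of up to 50 bases turned the 27 clusters into 21.

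Pcbp1 and Hnrnpa0 are known as intronless genes, and their deposited transcripts span 1669 and 2678 bases of genome. Caprin1 spans up to 34696 bases, Pabpc1 13316 and Celf2 up to 857082, and the median of the 761 listed genes was 40311. The parts of Pcbp1 and Hnrnpa0 outside the 3' UTR, which must hold the 5' UTR and the coding sequence, are 1321 and 1161 bases long, and no cluster was listed there in either gene. Counting every listed gene with a span of at most 2678 bases gave 21. Hba-a1 and Hba-a2 were counted there as separate genes, though they share 1 distinct cluster. The 19 besides Pcbp1 and Hnrnpa0 had a median of 1 cluster and at most 4, and their highest clusters had a median of 39, against medians of 1 cluster and 31 for all listed genes. The 8 clusters of Hnrnpa0 were thus the highest number among these short genes, while Pcbp1 had 1 as did 11 of the 19. The span limit was that of Hnrnpa0 itself, which made it the longest of the 21. It was also chosen with its number of clusters known. Among those of the 21 with a 3' UTR cluster, only Eid1 (1971 bases) had a longer 3' UTR than Hnrnpa0 (1517 bases). No source used here says how tags matching several places in the genome were treated, and Pcbp1 and Pabpc1 have close copies elsewhere in the genome. Their part in these heights was not tested.

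Many other RNA-binding protein genes were on the list. Of 125 genes in 8 families, written from general knowledge, 29 (23.2%, exact 95% interval 16.1 to 31.6) had a cluster, against 3.47% of all protein-coding genes. The lists were written with earlier results of these data known, and without the 5 genes the count was 24 of 120 (20%, exact 95% interval 13.3 to 28.3). Both intervals cover counting error only. The 24 had a median highest cluster of 32, against 31 for all listed genes, and 49 of their 52 clusters lay in 3' UTRs. At least 2 clusters were held by 17 of the 125, against 1.56% of all protein-coding genes, and 18 of the 125 had a cluster taller than 30, against 1.87%. Neither the families nor the whole list was tested. Transcript levels were not measured, and the protein-coding genes may include many with little transcript in this tissue. These shares therefore cannot show a preference of IMP2 for mRNAs of RNA-binding proteins.

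Hnrnpa0, Celf2, Caprin1 and Pcbp1 had the highest cluster of their families, which is part of how they were chosen. Of 25 hnRNP genes, 7 were listed. After Hnrnpa0 came Hnrnpab (height 55, 3 clusters), known for mRNA trafficking, Hnrnpl (45, 1 cluster), a splicing regulator of CA repeats, and Ptbp2 (33, 2 clusters), the splicing repressor of young neurons. Hnrnpu, Hnrnpll and Hnrnpa3 were also listed. Clusters covered 46.8% of the 3' UTR in Hnrnpa0, against 0.723% in Hnrnpa3 to 17.2% in Hnrnpl among the other 6.

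CELF and Hu proteins had 5 of 10. Beside Celf2 these were Celf4 (height 44, 2 clusters), Elavl3 (43, 5 clusters) and Elavl1 (36, 1 cluster), with Elavl2 lower. The Hu proteins of the Elavl genes stabilise AU-rich mRNAs, and Elavl3 is a marker of neurons. Clusters covered 11.1% of the 3' UTR in Celf2, against 13.8% in Elavl3.

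Stress granule proteins had 3 of 17. Caprin1 (54) was followed by G3bp2 (44, 4 clusters), a binding partner of Caprin1 in these granules, and the helicase gene Ddx3x (28, 1 cluster). Each of their clusters was in a 3' UTR.

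Of 16 poly(C)-binding and other KH-domain genes, 5 were listed. Pcbp2 (height 38), the intron-bearing relative of Pcbp1, had 5 clusters, of which 3 were in coding sequence and 2 in the 3' UTR. Qk (36, 4 clusters), the quaking gene of glia, and the neuronal splicing gene Nova1 (27, 2 clusters) followed, and Fubp1 was lower. Apart from Pabpc1, Pcbp2 was the only one of the 29 genes with a cluster in coding sequence.

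Of 12 poly(A)-binding proteins and their partners, only Pabpc1 and Paip1 (height 31, 1 cluster in the 3' UTR), whose product binds the poly(A)-binding protein, were listed. Among 24 genes of decay, localization and repression 5 were listed, namely Zfp36l1 (38, 1 cluster), Pum2 (31, 3 clusters), Ago1 (30, 1 cluster) and Rc3h2 (23, 3 clusters), with Msi2 lower. Pum2 represses its target mRNAs, Zfp36l1 promotes decay of AU-rich mRNAs, and Ago1 is an Argonaute of the microRNA pathway. Of 18 splicing regulators Srsf1 (53, 2 clusters) and Rbfox2 (44, 3 clusters) were listed, and of the 3 IGF2BP genes none. A gene that is absent may have had clusters below the limits of the list or a low transcript level, neither of which was measured.

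**Figure D4:**
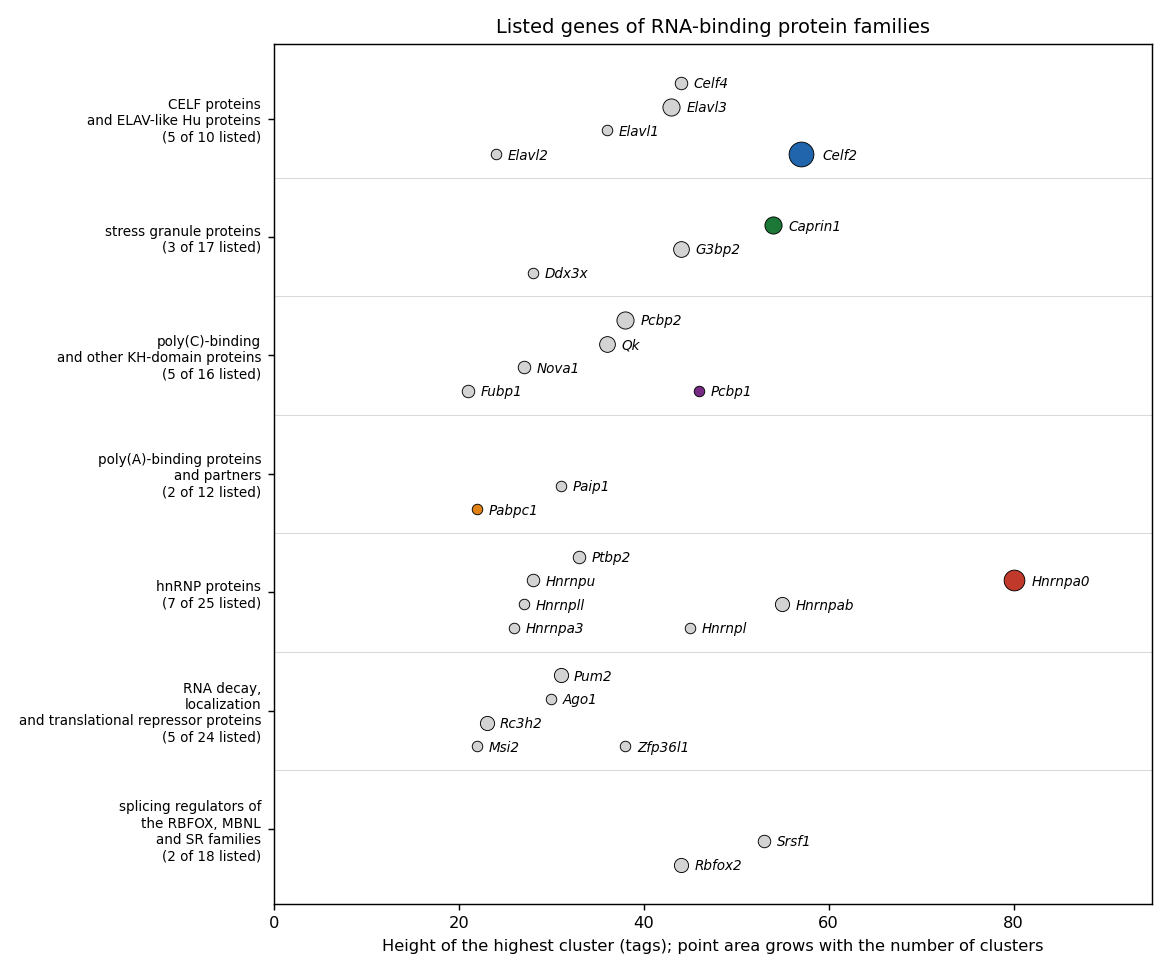
Each point is a listed gene of an RNA-binding protein family, placed by the height of its highest cluster in tags, with an area that grows with its number of clusters; the 5 genes are coloured. Hnrnpa0 (80), Celf2 (57), Caprin1 (54) and Pcbp1 (46) are the highest of their families, and Pabpc1 (22) lies below Paip1 (31).

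The genes most like each of the 5 in height, number of clusters and 3' UTR length were found by the distance between standardised log2 values over the 729 genes with a 3' UTR cluster. For Hnrnpa0 they were Stmn2 (height 85, 6 clusters, 1279 bases; distance 0.485), a stathmin of growing axons, and Cd24a (92, 10 clusters, 1500 bases; 0.494), a surface protein of young neurons. For Celf2 they were the transcription factor genes Nfib (54, 12 clusters, 6621 bases; 0.205) and Nfia (51, 10 clusters, 7641 bases; 0.400). Caprin1 was nearest to the TGF-beta receptor gene Tgfbr1 (52, 5 clusters, 4147 bases; 0.141) and to Prrc2b (58, 5 clusters, 3887 bases; 0.197). Pcbp1 was nearest to the ubiquitin ligase gene Cul3 (45, 1 cluster, 338 bases; 0.0713) and to Hnrnpl (45, 1 cluster, 360 bases; 0.0747). Pabpc1 has no 3' UTR cluster and was not placed.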

How the data were processed

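The source was 1 list of clusters for all 4 IMP2 HITS-CLIP libraries, annotated by the authors to RefSeq mRNAs. Per the submitters' processing notes, which give no versions, Bowtie, FastQC and the build mm9 were used. No source used here states the program or thresholds behind the clusters, any removal of PCR duplicates, or a pooling of libraries. Heights, as deposited, are a pileup signal in whole numbers, and per the file headers the second value is a fold, a ratio to a level that is not defined. Both are the authors' values of a cluster and only describe and rank clusters within the list. The deposited overlap of cluster and region, in bases, gave the width check and the alternative region rule.

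The 2865 lines (1 per cluster and transcript) were reduced to distinct clusters by chromosome, start, end and strand with pandas 2.3.3 in Python 3.11.15, and 0-based starts were made 1-based. Transcripts were named through a GRCm38 RefSeq table by accession (1088) or name (11), with no coordinate taken from it. A region was set by the midpoint, and 3' UTR length is that of the longest deposited interval. Code was tested on simulated clusters. The members and gene lists were chosen with earlier results of these data known. Named genes are the 5 genes, every listed gene of the families with values for at most 4 of each, and for each of the 5 genes the 2 nearest by standardised log2 height, number of clusters and 3' UTR length. Alternatives were joined clusters, taller clusters, higher folds, another gene level, another region rule, the shortest 3' UTR interval and gaps in place of midpoint distances. A few genes of the family lists are not reported here, and the counts leave them out. No sequence is shown.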

Additional observations from a re-analysis of the deposited data

How the results depend on the processing

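Each value was recomputed with 1 choice changed at a time, which gave 47 alternative values; 15 stayed with the original (counts within 1.5 times, shares within their interval, other values equal) and 32 moved; no replicate could be left out, and no paired analysis was possible because no value belongs to a single library. Joining clusters at most 50 bases apart moved the number of clusters to 5 for Hnrnpa0 and 3 for Caprin1, the density to 3.30, 1.49 and 0.778 per kilobase for Hnrnpa0, Celf2 and Caprin1, and the median spacing to 294.25, 378.75 and 279.5 bases. Taken as gaps, median spacings were 86, 242 and 46.5 bases. Clusters taller than 30 numbered 5 in Celf2, 3 in Caprin1 and 0 in Pabpc1, and 100% of them lay in 3' UTRs, since the coding cluster was dropped. Clusters with a fold above 5.40 numbered 3 in Hnrnpa0, 6 in Celf2 and 2 in Caprin1. The highest cluster exceeded that of 97.9% of listed genes for Hnrnpa0, 91.6% for Celf2, 89.4% for Caprin1, 82.4% for Pcbp1 and 11.3% for Pabpc1. By median height these shares were 96.7%, 50.6%, 84.1%, 94.5% and 12.4%, and by highest fold 90.0%, 77.1%, 48.2%, 70.2% and 62.2%. On its shortest 3' UTR interval Celf2 had 13.3% covered and 1.84 clusters per kilobase. Of the RNA-binding protein genes, 17 had at least 2 clusters and 18 a cluster taller than 30. Depth is unknown, so precision of a height could not be given.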

Other observations

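Genes listed only through coding sequence, as Pabpc1 was, numbered 30 of the 761 (3.94%), and 28 of them had a single cluster. Hba-a1 and Hba-a2 were counted as separate genes among them, though they share 1 distinct cluster (height 27, fold 6.39). Their highest clusters had a median height of 27 (range 18 to 48) and a median fold of 5.82. Of these 30 genes, 9 had a lower cluster than Pabpc1 and 22 a lower fold.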
